A study of Gallus gallus with 10 samples.

Results

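Of 17108 features with Ensembl chicken identifiers in duodenal crypts of laying hens, 90 were lower in every library from hens fed a pair of lactobacilli than in every library from hens on the basal diet, by a set margin. A feature had to reach 2 FPKM (fragments per kilobase of feature length, scaled to a total for the library) in all 3 control libraries. Its highest value over the 7 pair-fed libraries could be at most 0.67 times its lowest control value. The first condition left 7256 features, and the 90 members are 1.24% of these. The whole table has 19561 features. The members were chosen by their FPKM in pair-fed and control libraries, so their difference from control is given as a description, without a test.

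The hens were brown Hy-Line layers at peak egg production, and bulk RNA was sequenced from crypts released from the duodenum with EDTA. The pair-fed hens received for 30 days the basal diet with L. sa. + L. ag., L. sa. + L. av. or L. ag. + L. av., abbreviated as in the labels, and the series title names Lactobacillus salivarius and Lactobacillus agilis. There were 2 libraries for each pair, 3 for the basal diet (control), and 1 more pair-fed library whose title and description name different pairs, called here the library of unclear pair. The labels do not say whether a library came from 1 hen or from several, so a p-value here covers only how far these libraries spread, which may be technical spread.

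Intestinal crypts are the pits at the base of the villi. Stem cells divide there, and their daughters become absorptive cells, mucus-secreting goblet cells and hormone-secreting cells as they move up. Paneth cells, at the crypt base in mammals, release antimicrobial proteins and signals that maintain the stem cells. Lactobacilli are common residents of the bird gut, and the series title asks about Paneth cells in their effect on stem cell activity. The table holds identifiers without symbols, and 0 of them matched the reference gene table, so the members are described by identifier, level and length. Their functions, and the markers that would check the labelled tissue, were not analysed here. In bulk crypt RNA, fewer cells of a type and less RNA per cell cannot be told apart.

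Recovered reads differed with diet. The reads recovered from the FPKM values numbered 15257807 to 17639663 in the pair-fed libraries and 21686283 to 23726486 in the controls. The total that the authors divided by was 0.572 to 1.104 times the recovered reads of a library in the pair-fed libraries and 0.755 to 1.28 times in the controls. The part of depth and of these totals in the results was not tested, apart from the other scalings given with the results.

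Many members lay close to the limit of the rule. The ratio of the highest pair-fed to the lowest control value had a median of 0.603 and ran between 0.428 and 0.669. It was under 0.5 for 12 members, between 0.5 and 0.6 for 32 and at least 0.6 for 46. Just inside the limit, ENSGALG00000023135 had 22.1 FPKM in its highest pair-fed library and 33.0 FPKM in its lowest control, a ratio of 0.669. Just outside, ENSGALG00000014247 had 4.27 FPKM in its highest pair-fed library and 6.36 FPKM in its lowest control, a ratio of 0.671. At the limit on abundance, the lowest control value was 2.09 FPKM for the member nearest to it and 1.97 FPKM for ENSGALG00000011557, which was left out. Pair-fed and control libraries did not overlap, with pair-fed lower, for 1028 of the 7256 features (14.2%), so the members are the part of that larger set with the widest gaps. Features that did not overlap with pair-fed higher were as common, at 1029 (14.2%). The opposite pattern, with the lowest pair-fed value at least 1/0.67 times the highest control value, held for 145 features (2%). Among 602 features with the authors' own identifiers at 2 FPKM or more in each control, 3 met the rule of the members (0.498%).

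**Figure D1:**
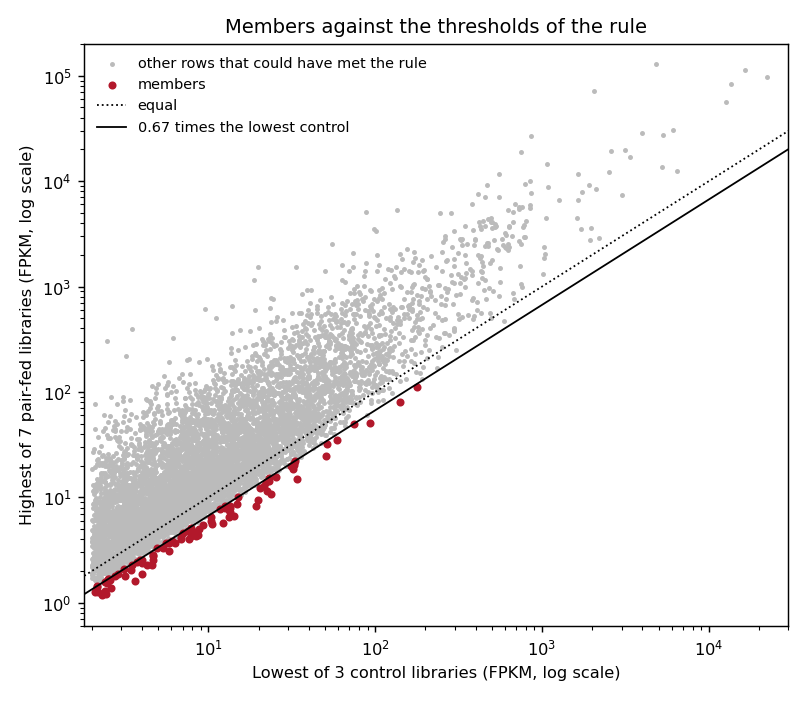
Each point is a feature with an Ensembl identifier and at least 2 FPKM in all 3 controls; the x axis is its lowest control value and the y axis its highest pair-fed value, both in FPKM on log scales. The 90 members (red) lie on or below the solid line at 0.67 times the lowest control, most of them close to it, and no member has a lowest control value above 178 FPKM.

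In the pair-fed libraries the members stood far below their control level. The mean over 7 pair-fed libraries was 10.9% to 52.1% of the control mean, with a median of 31.3%, whereas the median over all 7256 features was 95.4%. The 10.9% was that of ENSGALG00000027796, of 87 bp, with 0 or 1 read in each pair-fed library, and the next lowest was 13.5%. The mean was under 50% of control for 89 members, against 12.8% of all 7256 features, a contrast that the rule largely sets. On the log2 scale of group means plus 1 FPKM, the ratio of pair-fed to control had a median of -1.38 and ran between -2.58 and -0.70. The members' median FPKM was 3.04 over pair-fed means and 10.1 over control means.

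ENSGALG00000004435, a feature of 1735 bp, had the widest gap. It had 8.28 and 7.51 FPKM with L. sa. + L. ag., 7.12 and 6.28 with L. sa. + L. av., 8.24 and 3.91 with L. ag. + L. av. and 5.89 in the library of unclear pair, against 19.4, 21.2 and 19.6 FPKM in control libraries. The controls lay close together, and the pair-fed libraries were all well below them, with L. ag. + L. av. replicate 2 the lowest. The pair-fed mean was 6.75 ± 1.55 FPKM (SD, n = 7) and the control mean 20.1 ± 0.98 FPKM (SD, n = 3), on 62 to 277 reads a pair-fed library and 563 to 1020 reads a control library.

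ENSGALG00000015238, of 1767 bp, came next in the width of its gap, with a different shape. It had 8.51 and 13.1 FPKM with L. sa. + L. ag., 12.8 and 10.97 with L. sa. + L. av., 14.8 and 5.88 with L. ag. + L. av. and 14.2 in the library of unclear pair, against 116, 45.4 and 33.8 FPKM in control replicates 1, 2 and 3. Here the controls were spread over a wide range, led by replicate 1, and the pair-fed libraries ran from 5.88 to 14.8 FPKM. Without control replicate 1, the log2 ratio of pair-fed to control mean was -1.70, against -2.41 with all libraries.

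The abundant members were few. Only 3 members had a control mean above 100 FPKM, out of 563 such features (0.533%). ENSGALG00000005587, of 4212 bp, had the highest control mean. It had 95.9 and 89.2 FPKM with L. sa. + L. ag., 77.1 and 111 with L. sa. + L. av., 104 and 63.7 with L. ag. + L. av. and 80.8 in the library of unclear pair, against 206, 195 and 178 FPKM in controls. Its pair-fed mean was 46.1% of its control mean, a smaller difference than for most members, measured on at least 2456 reads in each library.

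ENSGALG00000015492, of 1568 bp, followed at 80.2 and 34.7 FPKM with L. sa. + L. ag., 23.5 and 41.2 with L. sa. + L. av., 77.5 and 39.5 with L. ag. + L. av. and 31.2 in the library of unclear pair, against 179, 198 and 142 FPKM in controls. Replicate 1 of L. sa. + L. ag. was close to replicate 1 of L. ag. + L. av., and both were well above its other pair-fed libraries. The third abundant member, of 1095 bp, was at 39.3 to 51.1 FPKM in pair-fed libraries and at 92.4 to 209 FPKM in controls. Of the other members, 25 had a control mean of up to 5 FPKM, 40 had 5 to 20 FPKM and 22 had 20 to 100 FPKM. These are 1.87%, 1.17% and 1.13% of the features of those levels, so over all lengths the share was highest among the least abundant features. Above 4000 bp it was not, at 1.24% up to 5 FPKM, 1.43% at 5 to 20 FPKM and 1.37% above 20 FPKM (5, 9 and 2 members).

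**Figure D2:**
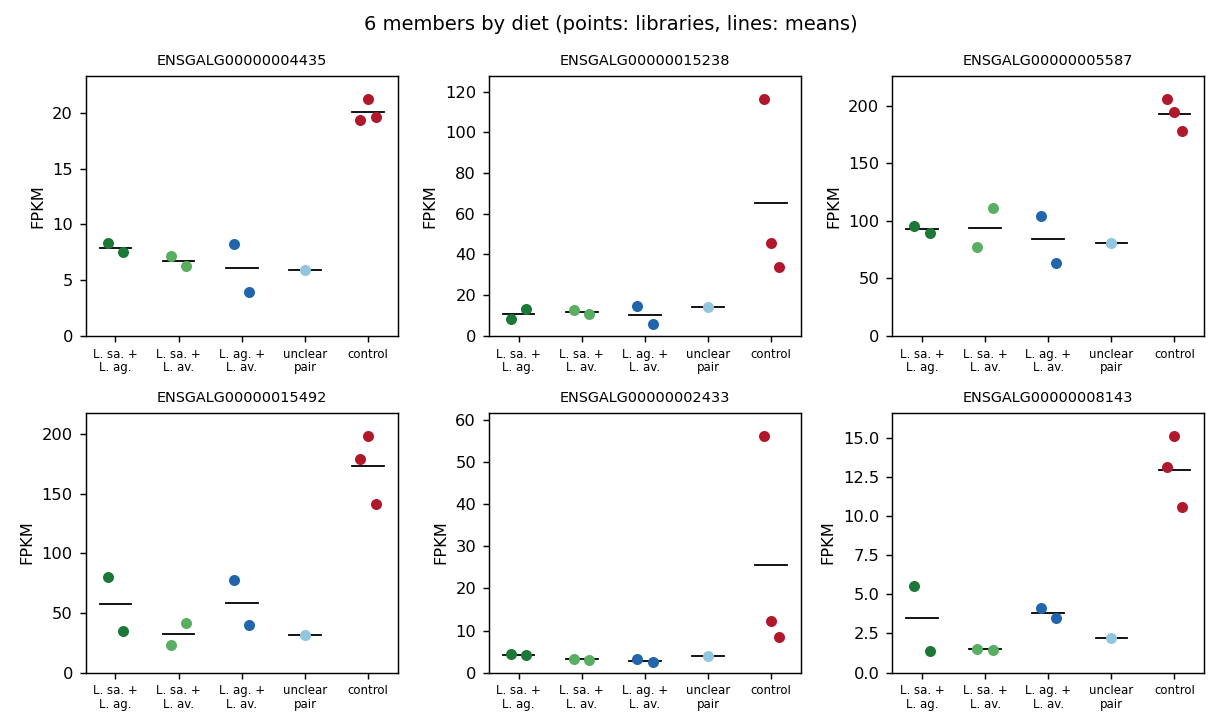
FPKM on a linear axis from 0 for 6 members by diet; each point is a library and each line the mean of its diet, with 2 libraries for each pair, 1 of unclear pair and 3 controls. All pair-fed points lie below all control points, while the controls are close together for ENSGALG00000004435 and far apart for ENSGALG00000002433, where replicate 1 is at 56.2 FPKM.

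Pair-fed libraries differed in how far the members lay below control. Replicates 1 and 2 had median log2(FPKM + 1) differences from the control mean of -1.08 and -1.37 with L. sa. + L. ag., of -1.51 and -1.46 with L. sa. + L. av. and of -0.98 and -1.68 with L. ag. + L. av., and the library of unclear pair had -1.39. Over all 7256 features the same medians lay between -0.12 and 0.02 in pair-fed libraries. Each control library, set against the mean of the other 2, had a median of 0.39, -0.05 and -0.32 for the members and of 0.08, -0.02 and -0.05 for all 7256 features. Scaled instead to all recovered reads, control replicate 3 had a median of -0.94 against the other controls, close to the -0.97 of L. ag. + L. av. replicate 1 against the mean of all 3. These 2 baselines differ, as the second includes control replicate 3. Under that scaling the members' median FPKM was 6.46 in control replicate 3 and 4.49 in L. ag. + L. av. replicate 1. The median FPKM of all 7256 features was also lower in control replicate 3, at 8.55 against 16.2 and 14.2 in control replicates 1 and 2. It was 12.6 in L. ag. + L. av. replicate 1. The rule holds members to at most 0.67 times the lowest control in every pair-fed library, so part of each difference is set by it. How much farther below each library lies is not fixed. The library nearest to control and the one farthest from it belonged to the same pair.

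**Figure D3:**
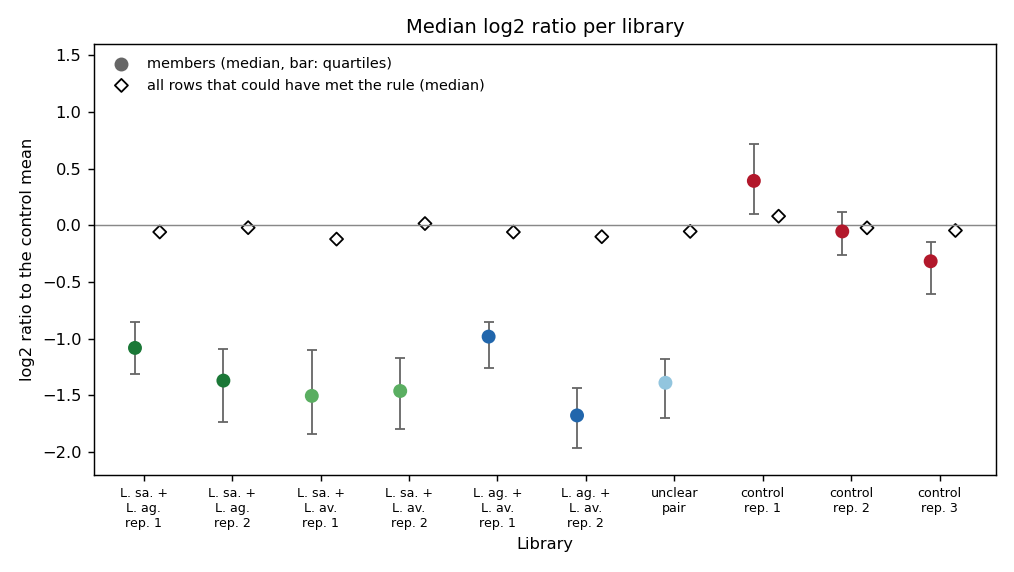
Median log2 ratio to the control mean in each of 10 libraries for the 90 members (circles, bars from the lower to the upper quartile over members) and for all 7256 features that could have met the rule (diamonds); a control library is set against the mean of the other 2. Members lie between -0.98 and -1.68 in pair-fed libraries and between 0.39 and -0.32 in controls on the deposited values (control replicate 3 is at -0.94 with all recovered reads), while the diamonds lie between -0.12 and 0.08.

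The 2 libraries where members lay nearest to control held the highest pair-fed value for most members. Nearness was judged on these same members, and the rule caps that highest value. The shares that follow are thus largely expected from that choice and are a description only. The highest pair-fed value was in L. ag. + L. av. replicate 1 for 39 members and in L. sa. + L. ag. replicate 1 for 33, together 80% of members, where these libraries were highest for 36.8% of all 7256 features. They were the top 2 of the 7 pair-fed libraries for 42 members (46.7%, against 18.7% of all 7256 features). They were the most deeply sequenced pair-fed libraries, with 17550493 and 17639663 reads, followed by the library of unclear pair with 17332295 reads. The lowest pair-fed value was in L. ag. + L. av. replicate 2 for 45 members, and the matching share of all 7256 features was not computed. That library was the highest for 3 members (3.33%, against 22.9% of all 7256 features). Without L. sa. + L. ag. replicate 1, 191 features met the rule, without L. ag. + L. av. replicate 1, 187, and without both, 694 (the 90 members are among them by construction).

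Members varied together across the pair-fed libraries. The Pearson correlation of log2(FPKM + 1) between 2 members over these 7 libraries had a median of 0.50 over 4005 combinations of members, with quartiles of 0.22 and 0.71. Over all combinations of the 7256 features the median was 0.00, with quartiles of -0.44 and 0.45. The values of a library share its depth and its scaling, and features are not independent replicates. The rule also used these 7 libraries and chose all members in 1 direction, so the higher median is a description only. Within L. ag. + L. av., replicate 1 was higher than replicate 2 for 85 of 90 members (94.4%, against 49.5% of all 7256 features), by a median of 0.68 on the log2 scale. Within L. sa. + L. ag. it was higher for 66 (73.3%, against 45.9%), by a median of 0.25. Within L. sa. + L. av. it was higher for 50 (55.6%, against 50.5%), by a median of 0.05.

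**Figure D4:**
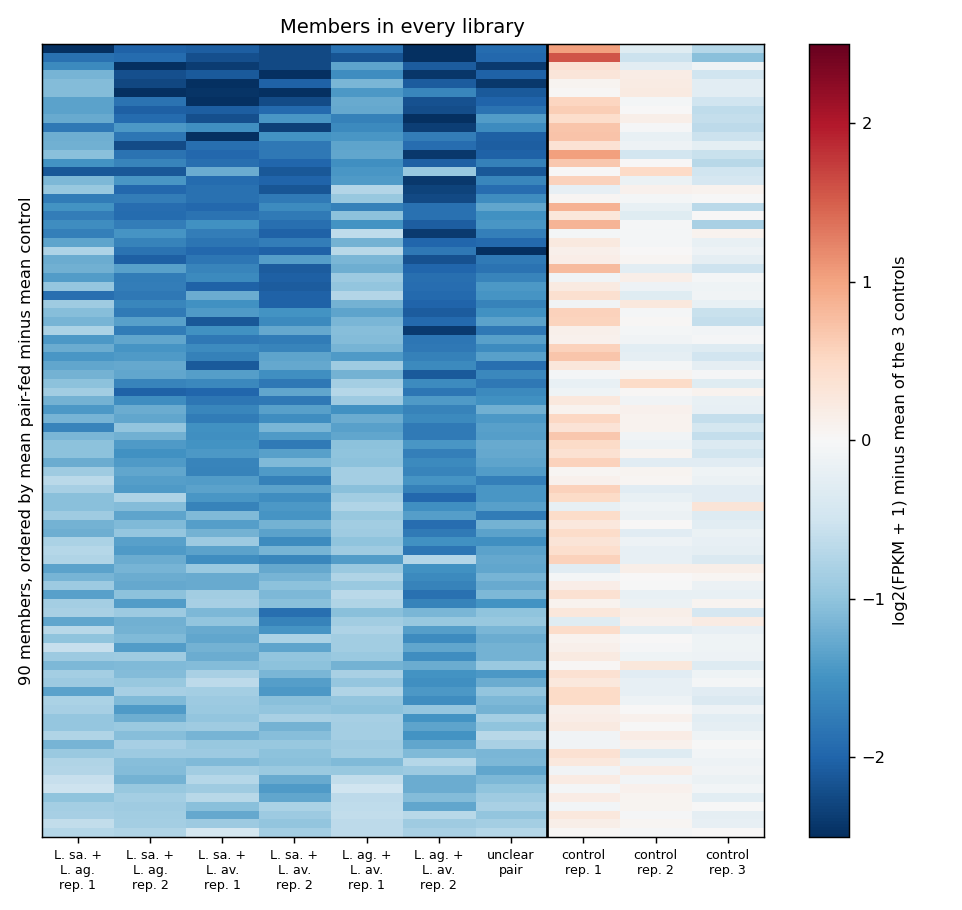
Colour shows log2(FPKM + 1) minus the mean of the 3 controls for the 90 members (lines) in 10 libraries (columns), limited to 2.5 in either direction; the lines are ordered by mean pair-fed minus mean control. The columns of L. sa. + L. ag. replicate 1 and L. ag. + L. av. replicate 1 are paler than the other pair-fed columns for most members, and control replicate 1 is above its group mean for most.

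Control libraries also stood apart from each other. Control replicate 1 was the highest control for 68 members and replicate 3 the lowest for 62, where all 7256 features gave 48.7% and 40.8%. Replicate 1 was above replicate 2 and replicate 2 above replicate 3 for 52 members (57.8%, against 35.3% of all 7256 features). The size of the spread was ordinary, since the coefficient of variation of the controls had a median of 23.0% for members and 22.1% for all 7256 features. It was under 20% for 40 members (44.4%, against 45.3%) and over 50% for 7 (7.78%, against 14.3%), and in all of these 7 replicate 1 was highest. Without control replicate 3, 418 features met the rule, and without control replicate 1, 176.

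ENSGALG00000025759, of 7783 bp, had the most even controls, with a coefficient of variation of 3.01%. It was at 1.202 and 1.169 FPKM with L. sa. + L. ag., 1.69 and 1.01 with L. sa. + L. av., 1.32 and 1.07 with L. ag. + L. av. and 1.21 in the library of unclear pair, against 2.68, 2.54 and 2.67 FPKM in controls. ENSGALG00000002433, of 2082 bp, had the most uneven controls, at 103%. It was at 4.33 and 4.08 FPKM with L. sa. + L. ag., 3.20 and 3.04 with L. sa. + L. av., 3.30 and 2.41 with L. ag. + L. av. and 3.94 in the library of unclear pair, against 56.2, 12.4 and 8.40 FPKM in control replicates 1, 2 and 3. Its pair-fed values lay within a narrow band, and the size of its difference from control rests on control replicate 1. The log2 ratio was -2.58 with all libraries and -1.35 without control replicate 1.

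The size of the difference is tied to the spread of the controls, since the rule sets pair-fed values against the lowest control and the percentages against the control mean. In 14 members the highest control was less than 1.2 times the lowest. Their pair-fed mean was 29.0% to 52.1% of control, with a median of 36.7%. In the 7 members with a coefficient of variation over 50%, it was 13.5% to 29.6%, with a median of 19.5%.

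By pair, the members' mean was at a median of 35.7% of control with L. sa. + L. ag., 26.4% with L. sa. + L. av. and 32.0% with L. ag. + L. av., and at 29.3% in the library of unclear pair. All of these share the 3 control libraries. The lowest log2 ratios of group means were those of ENSGALG00000015238 (-2.48) and ENSGALG00000002433 (-2.36) with L. sa. + L. ag., of ENSGALG00000002433 (-2.69) and ENSGALG00000008143 (-2.49) with L. sa. + L. av., and of ENSGALG00000002433 (-2.79) and ENSGALG00000015238 (-2.55) with L. ag. + L. av. ENSGALG00000008143, of 4493 bp, was at 5.53 and 1.39 FPKM with L. sa. + L. ag., 1.53 and 1.44 with L. sa. + L. av., 4.13 and 3.48 with L. ag. + L. av. and 2.22 in the library of unclear pair, against 13.2, 15.1 and 10.6 FPKM in controls. Its libraries of L. sa. + L. av. lay together at the low end, and those of L. sa. + L. ag. spanned the range of all pair-fed libraries.

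Differences between the pairs are the comparison that the rule did not use, although it caps the highest pair-fed value. All 90 members were among the 12040 features tested with limma, each through its controls, and 88 also reached 1 FPKM in at least 2 pair-fed libraries. The other 2 passed the filter on low values through the controls alone, so their contrasts between pairs show little. In fits of only the 2 groups compared, 82, 86 and 80 members passed the filter, so the rest of the 90 entered these contrasts through other groups. No member differed between pairs at a Benjamini-Hochberg adjusted p under 0.05, or at an unadjusted p under 0.05, in any of the 3 limma contrasts, and all adjusted p were 1. Among all features, limma called 0 (0%) for L. sa. + L. ag. over L. sa. + L. av., with 196 (1.63%) at an unadjusted p under 0.05. It called 1 (0.00831%) for L. sa. + L. ag. over L. ag. + L. av., with 490 (4.07%) at that unadjusted p. For the remaining contrast, L. sa. + L. av. over L. ag. + L. av., limma called 0 (0%), with 352 (2.92%) at that unadjusted p. On log2(FPKM + 1), no member's difference between pairs exceeded 1 in size, with a median SE of 0.40 over members. A change of that size in a single member could thus be missed with 2 libraries a pair. Adding 1 FPKM shrinks the differences of low features. With 0.1 FPKM added instead, ENSGALG00000012763 differed by 1.11 for L. sa. + L. ag. over L. sa. + L. av. For ENSGALG00000027796, on very few reads, L. sa. + L. ag. differed by -1.62 from L. sa. + L. av. and by -3.28 from L. ag. + L. av.

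Members leaned higher with L. sa. + L. ag. than with the other pairs, which is given as a description since members are not replicates. With L. sa. + L. ag. relative to L. sa. + L. av., 75 members were higher (83.3%, against 48.8% of all 12040 features) and 15 lower. The median log2 difference was 0.21 for members and -0.01 for all 12040 features. With L. sa. + L. ag. relative to L. ag. + L. av., 66 were higher (73.3%, against 49.1%) and 24 lower (median 0.09, all features -0.01). With L. sa. + L. av. relative to L. ag. + L. av., 38 were higher (42.2%, against 48.1%) and 52 lower (median -0.08, all features -0.02). Among the members that passed the filter on the compared groups alone, 69 were higher and 13 lower, 64 higher and 22 lower, and 36 higher and 44 lower in these 3 contrasts. Of all features in those fits, 47.4%, 49.4% and 49.7% were higher. Of the 3 pairs, L. sa. + L. ag. had the highest mean for 55 members (61.1%, against 34.9% of all 7256 features) and L. sa. + L. av. the lowest for 50, where it was lowest for 32.7% of all 7256 features. This order rests on single libraries. Without L. sa. + L. ag. replicate 1, 55 members were higher with that pair than with L. sa. + L. av. and 39 higher than with L. ag. + L. av. (median log2 differences 0.09 and -0.05). Of all features, 51.4% and 49.5% were higher in these contrasts. Without L. ag. + L. av. replicate 2, members were higher in L. ag. + L. av. than in both other pairs, as only 15 were higher with L. sa. + L. ag. (median -0.18) and 8 with L. sa. + L. av. (median -0.38). Of all features, 52.5% and 49.6% were higher in those other pairs. Without L. ag. + L. av. replicate 1, 82 and 68 members were higher in those other pairs (medians 0.44 and 0.19), against 47.1% and 45.4% of all features.

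The members at the ends of these contrasts had differences under 1 in size on log2(FPKM + 1), with wide errors. ENSGALG00000012763, of 3291 bp, was at 3.96 and 2.496 FPKM with L. sa. + L. ag. and at 1.17 and 1.68 FPKM with L. sa. + L. av., which differed by 0.79 ± 0.45 on the log2 scale (SE, with a limma adjusted p of 1). ENSGALG00000016285, of 2847 bp, was highest for both contrasts against L. ag. + L. av. It was at 14.3 and 8.58 FPKM with L. sa. + L. ag. and at 6.97 and 12.3 FPKM with L. sa. + L. av., against 10.3 and 4.15 FPKM with L. ag. + L. av. The values of the pairs overlapped, and the log2 differences were 0.66 ± 0.52 and 0.43 ± 0.52 (SE, limma adjusted p = 1 for both). ENSGALG00000008143 was lowest for L. sa. + L. av. relative to L. ag. + L. av., at -0.95 ± 0.46 (SE, limma adjusted p = 1), with values that did not overlap.

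ENSGALG00000027796 had the lowest difference in both contrasts of L. sa. + L. ag., and its values rest on very few reads. This shortest member, of 87 bp, had 0 and 0 reads with L. sa. + L. ag., 1 and 0 with L. sa. + L. av., 1 and 1 with L. ag. + L. av. and 0 in the library of unclear pair, against 9, 12 and 3 reads in controls. These reads correspond to 0 to 1.26 FPKM in pair-fed libraries and 2.09 to 5.14 FPKM in controls. It passed the filter on low values through the controls alone, and with 0 or 1 read in each pair-fed library no difference between pairs can be read from it. In all, 8 members had fewer than 10 reads in some pair-fed library, and 2 were listed at 0 in at least 1. For the typical member, the lowest pair-fed library held 60.5 reads and the lowest control 415.5 reads (medians over members).

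Short features were rare among the members. They had a median length of 2363.5 bp (quartiles 1545.5 and 3575.5 bp), against 2077.5 bp (quartiles 1275 and 3298.5 bp) for all 7256 features. Of the members, 87 (96.7%) were longer than 1000 bp, where 83.5% of all 7256 features were. Up to 1000 bp, 3 of 1195 features were members (0.251%), and above it 87 of 6061 (1.44%). Beyond 1000 bp the share changed little, at 1.40% up to 2000 bp, 1.502% up to 4000 bp and 1.35% above. The short classes as a whole lay the other way. The median log2 ratio of pair-fed to control mean over all features was 0.82 up to 500 bp and 0.59 between 500 and 1000 bp, and it was 0.17, -0.24 and -0.46 in the 3 longer classes. Members' own medians were -1.48, -1.35 and -1.10 in these longer classes. The part of feature length in the members' difference was not tested.

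The longest member, ENSGALG00000006829, has 12168 bp. It was at 1.87 and 0.89 FPKM with L. sa. + L. ag., 1.62 and 0.79 with L. sa. + L. av., 1.78 and 0.82 with L. ag. + L. av. and 0.96 in the library of unclear pair, against 3.92, 3.08 and 2.86 FPKM in controls. In each pair replicate 1 was above replicate 2, by more than the pairs differed in their means.

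**Figure D5:**
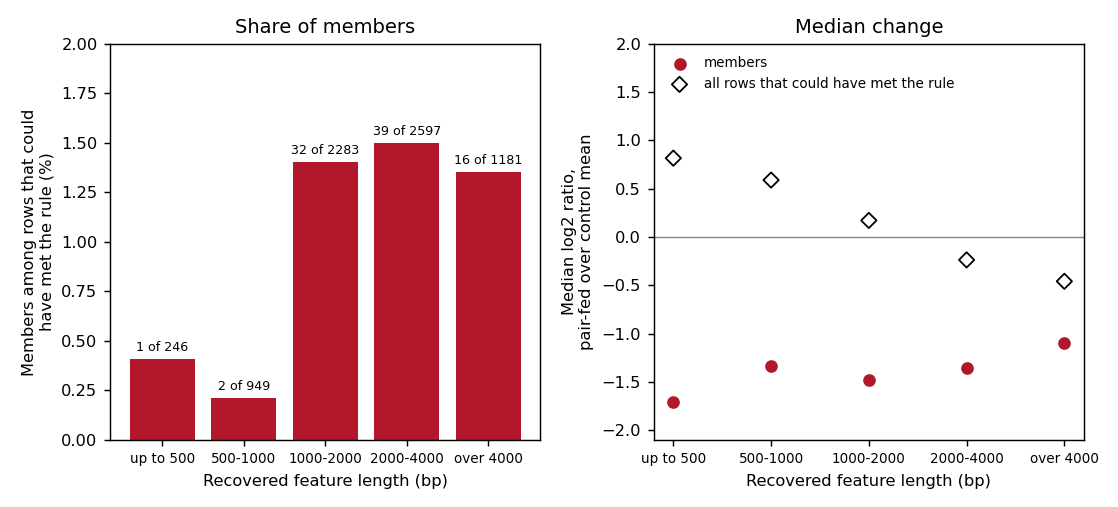
Left, the percent of features that could have met the rule and are members, by feature length in bp, with counts above the bars; right, the median log2 ratio of pair-fed to control mean for members (circles) and for all such features (diamonds). Up to 1000 bp members are rare and the median of all features is above 0, and the median of all features is lower in each longer class, to -0.46 above 4000 bp.

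How many features met the rule depended on the scaling. With values divided by all recovered reads in place of the authors' totals, 28 features met the rule, 21 of them members. This moved the median log2 ratio of all 7256 features to -0.36, against -0.06 as deposited. Control replicate 3, whose total was 0.755 times its reads, then became the lowest control for all 90 members. Of the members named by their gap or their difference from control, ENSGALG00000004435, ENSGALG00000015238, ENSGALG00000002433 and ENSGALG00000008143 still met the rule, at ratios of 0.613, 0.639, 0.580 and 0.589, and the abundant ENSGALG00000005587 and ENSGALG00000015492 did not, at 0.857 and 0.8004. With median-ratio scaling 80 features met it, 77 of them members, and with quantile normalization 182, 74 of them members, with a median log2 ratio of all 7256 features of -0.22. The highest ratio of a member was 0.690 with median-ratio scaling, 0.978 with all recovered reads and 0.797 with quantile normalization. That the groups of the 90 members did not overlap under any of the 3 is no sign of stability: the members were selected for their gap, and the library factors of median-ratio scaling and of the recovered reads differ by too little to close a gap of that size. Of all 7256 features, 13.8% did not overlap, with pair-fed lower, under median-ratio scaling, 5.76% with all recovered reads and 17% with quantile normalization.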

How the data were processed

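The authors deposited 1 table of FPKM values for 19561 features in 10 libraries, of which 17108 have Ensembl identifiers. CASAVA 1.8, HISAT2 and featureCounts 1.5.0-p3 are named, with no role, per the submitters' processing notes. The genome build and the annotation were not given in the sources used here. Neither was the total behind each FPKM column. The reference gene table (25635 genes) holds 0 Ensembl identifiers, so no symbols, lists or markers were used, and no sequence was analysed here.

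Low FPKM values are whole multiples of a step that depends on feature length and library total. These steps gave a length for all 17375 features with any value above 0. The length taken was the shortest found at which all non-zero values of a feature were whole reads, to within 0.02. That 100% of the non-zero values were whole reads follows from this search and is no check of it. This step and the fits were also run on simulated data, and the outcome is not given here. In the simulated fits the noise was independent between features, whereas the members varied together.

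The difference from control was described and not tested. Contrasts between pairs used limma 3.58.1 in R 4.3.3 (eBayes with a trend, 2-sided) on log2(FPKM + 1) of 12040 features with at least 1 FPKM in at least 2 libraries, in 1 fit of all groups with a coefficient of its own for the library of unclear pair. Fold changes on that scale understate changes of low features. P-values were adjusted over all 12040 features. Reads are not independent molecules, and the counting error of read numbers does not cover the spread between libraries.

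The members and the rules for naming them were chosen with earlier results of these data known. At most 2 identifiers were named for each description: those with the widest gap, the highest control mean, the lowest ratio for each pair, the ends of each contrast between pairs, the most and least even controls, the longest and shortest, and those at the thresholds. Alternatives were another pseudocount, no filter, other scalings and thresholds, a replicate block, a fit of only 2 groups, the library of unclear pair put with either of its pairs, and leaving out each library.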

Additional observations from a re-analysis of the deposited data

Results flagged for a closer look

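Over the 7 pair-fed libraries, 4 of the 90 members had 1 library far from the others, judged by its gap to the next value as a share of the range. Chance gives such a gap in about 1 in 20 groups of independent libraries of 1 kind. That rate does not carry over here, since these libraries are of several diets and the rule capped their values. Members also varied together, and these 4 were chosen after their values were seen. In 3 of them the library was L. ag. + L. av. replicate 1, on the side of control. It had 49.3 FPKM for ENSGALG00000012138, against 27.1 FPKM in the next pair-fed library and, in controls, 74.97 to 82.9 FPKM. It had 11.6 FPKM for ENSGALG00000011031, with 7.20 FPKM in the next library and 22.5 to 24.0 FPKM in controls. It had 4.69 FPKM for ENSGALG00000012965, with 3.00 FPKM in the next library and 8.31 to 13.1 FPKM in controls. The fourth was L. sa. + L. av. replicate 2, at 0.276 FPKM for ENSGALG00000008983, where the next lowest pair-fed library had 1.13 FPKM and the controls 2.503 to 4.74 FPKM. The members' median over libraries, in FPKM or on the log2 scale, showed no such library.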

How the results depend on the processing

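The number of features that met the rule was 90. It was 12 with a ratio of at most 0.5, 359 with at most 0.8, 57 with a control minimum of 5 FPKM, 28 with division by all recovered reads and 182 with quantile normalization. Leaving out 1 library gave 91 to 418, with 176 without control replicate 1, 418 without control replicate 3, 191 without L. sa. + L. ag. replicate 1 and 187 without L. ag. + L. av. replicate 1. Without both of the last 2, an alternative chosen after seeing the data, it was 694. Fewer libraries make the rule easier to meet. The members' median log2 ratio to control, whose sign in pair-fed libraries the rule largely fixes, was recomputed per library with another pseudocount, with median-ratio scaling, with all recovered reads and without single controls. With a pseudocount of 0.1 it was -1.72 in L. sa. + L. ag. replicate 2, -1.77 and -1.90 in replicates 1 and 2 of L. sa. + L. av., -1.99 in L. ag. + L. av. replicate 2 and -1.69 in the library of unclear pair. With all recovered reads it was -1.38 in L. sa. + L. ag. replicate 1, -1.74 in L. sa. + L. av. replicate 2 and -2.25 in L. ag. + L. av. replicate 2, and -0.94 in control replicate 3. Without single controls it was -1.62 to -1.26 in L. sa. + L. av. replicate 1. In the contrasts between pairs, 0 members were called in each fit run (15 or 16 settings a contrast), the limma adjusted p of members lying between 0.512 and 1, where 0 to 10 of all features were called. At most 6 members (6.67%) had an unadjusted p under 0.05, for L. sa. + L. av. over L. ag. + L. av. without L. ag. + L. av. replicate 2, where 9.30% of all features did. For ENSGALG00000016285, the difference of L. sa. + L. av. from L. ag. + L. av. was -0.14 to 1.00 with 1 library left out, and -0.14, the other way, without L. ag. + L. av. replicate 2. The cause of these shifts was not tested.

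Same-numbered libraries did not deviate together in every combination of groups (correlations of -0.28 to 0.44 over 12040 features). The highest value, 0.44, was that of L. ag. + L. av. when set beside L. sa. + L. ag., and the lowest that of L. sa. + L. av. when set beside control. Low values in some combinations cannot exclude that the number pairs libraries in others, and this was not tested further. With a replicate block 0 members were called in each contrast, and among all features 0, 1 and 1. Crossed numbers of L. sa. + L. av., chosen after seeing the data, gave 0 members in both contrasts, and 0 and 1 of all 12040 features. Of the 90 members, 27 had at least 100 reads in every pair-fed library and 80 in every control, which limits the precision of the pair-fed values.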
